A study of Homo sapiens with 9 samples.

Results

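RNA sequencing of A549 cells carrying a short hairpin RNA directed at HES4 (shHES4) was compared with that of A549 cells carrying a control hairpin (shCtrl), over every gene that passed a filter on low counts. A549 is an established human lung adenocarcinoma line. Short hairpin RNAs are cut by the cell's own enzymes and guide the silencing of matching transcripts. The 6 libraries, 3 of each hairpin, are part of a series of 9, and the other 3 carry a hairpin that the labels direct at HES1 (shHES1). All 9 were made from total RNA of the same line, and the labels give no treatment, time point or clone, nor the vector or sequence of any hairpin. Of 60664 gene identifiers, 16903 passed the filter and make up the comparison. Nothing in the labels states that the libraries of one hairpin were grown separately. The p-values therefore measure the spread between these samples alone, which may be technical.

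HES4 encodes a basic helix-loop-helix repressor, and the HES proteins, named for fly hairy and enhancer of split, bind short DNA boxes and recruit corepressors. Several are targets of Notch signalling. Some systems recur among the genes described below. Type I and type II interferons act through JAK kinases and STAT factors on response elements in the promoters of antiviral and antigen presentation genes. Growth factor signals through ERK switch on the immediate early factors EGR1 and FOS and the phosphatases that limit the signal. Fibrinogen, vitronectin and complement factors are plasma proteins made chiefly by liver, and A549 cells transcribe a number of their genes. Matrix proteins and cadherins set how epithelial cells attach to their surroundings and to each other.

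The targeted gene was examined first. HES4 (chromosome 1 from 998962 to 1000172 on the minus strand of GRCh38) read 21.3, 25.4 and 27.7 CPM in shCtrl and 20.4, 17.1 and 16.6 CPM in shHES4, where CPM are counts per M library counts, scaled by TMM. The ranges of the groups did not overlap, and the nearest pair of libraries differed by less than the spread within either group. The mean was 24.8 ± 3.26 CPM in shCtrl and 18.03 ± 2.10 CPM in shHES4 (SD, n = 3). On the log2 scale the difference was -0.46 ± 0.10 (± SE, as for every fold change below), and the adjusted p by edgeR's quasi-likelihood F test was 0.00992. That call ended without shHES4 replicate 2 (adjusted p = 0.0549) or replicate 3 (adjusted p = 0.0619), and without shCtrl replicate 3 the log2 fold change was -0.37. With a correction for GC content and length it was -0.35 (adjusted p = 0.011), the transcript being 73.9% G and C. The libraries labelled shHES1 read 18.3, 15.2 and 15.7 CPM for HES4, and shHES4 differed from them by 0.13 ± 0.10 (adjusted p = 0.456). Their HES1 was not lower than in shCtrl, at 9.11, 6.40 and 8.32 against 6.99, 6.54 and 7.17 CPM, so they are named by their label only. In shHES4, HES1 read 6.42, 6.80 and 7.01 CPM (log2 fold change -0.03 ± 0.12, adjusted p = 0.929). None of HES2, HES6, HES7, HEY1 and HEYL was called, and HES5 had 0 counts. Bulk RNA cannot tell fewer cells that express a gene from less RNA per cell, here or in any result that follows.

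The 9 libraries held 22.8 to 27.6 M counts, and one of them, shCtrl replicate 3, stood apart from its group. Its chi-square per degree of freedom against the other shCtrl libraries was 4.81 and 6.35, against 2.31 to 3.18 for other pairs of libraries with the same hairpin, and its mitochondrial share was the highest (7.16%, with 6.23% and 6.35% in the other shCtrl libraries and 5.89 to 6.16% in shHES4). Without it, 492 genes were higher and 387 lower in shHES4, against 547 and 457 with it. A second difference between the groups concerns transcripts that hardly any library but those of shCtrl held. IRS4, an insulin receptor substrate gene, had 126, 117 and 107 counts in shCtrl, 0, 1 and 1 in shHES4 and 0, 4 and 0 in the libraries labelled shHES1. Scaled for library size, the shCtrl to shHES4 ratio was 165, with a 95% interval for counting error alone from 45.3 to 1367. CDKN2A, whose locus is known to be deleted in A549, had 13, 27 and 21 counts in shCtrl, 0, 1 and 0 in shHES4 and 1, 0 and 3 in those labelled shHES1. Its shCtrl to shHES4 ratio was 57.5, with an interval from 9.94 to 2307. MTAP, which neighbours CDKN2A, held 1010 to 1266 counts in shCtrl and 980 to 1266 in shHES4. What these signals have to do with the other differences from shCtrl was not tested. For that reason the direct difference between shHES4 and the libraries labelled shHES1, in which shCtrl has no part, is given beside the main results.

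Leukocyte markers give the level at which other cells could enter. Of 14 such genes, CD3E, CD3D, MS4A1 and TYROBP had 0 counts in every library, and 11 stayed under a mean of 1 CPM. Their summed level ran from 85.9 to 102 CPM in shCtrl, 112 to 115 in shHES4 and 82.1 to 85.2 in the libraries labelled shHES1. CD68, a lysosomal membrane protein gene that epithelial lines also express, made up most of the sum and rose by 0.30 ± 0.05 (adjusted p = 0.0013). Of 14 fibroblast and endothelial markers, 11 stayed under 1 CPM, and their sum ran from 6.72 to 9.11 CPM in shCtrl and 8.54 to 9.11 in shHES4. Of 15 tested genes of A549 and lung epithelial identity, KRT8 rose (a call that ended in 3 of 17 alternatives) and 5 fell, CDKN2A among them. The CDKN2A locus is known to be deleted in A549 and its few counts lay almost wholly in shCtrl, so its fall is not that of an A549 marker. The share lower, which counts CDKN2A, was 33.3%, where 2.70% of all tested genes were lower, and the number lower ran from 2 to 5 over the alternatives. The median log2 fold change of the list was -0.06.

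Promoter stretches of 7 genes that rose are shown to let the response element and CArG letters be seen in place. They were picked because they hold a match. Each line is the plus strand of the RefSeq promoter on GRCh38.p14, or of the gene's own strand where that is minus, 5' to 3'. In the first 6, capitals mark the interferon-stimulated response element core GAAANNGAA read on either strand, so that a match on the other strand shows as its reverse complement. In EGR1, capitals mark CArG boxes, the sites of serum response factor.
ISG15, chr1:1013359-1013429, plus strand: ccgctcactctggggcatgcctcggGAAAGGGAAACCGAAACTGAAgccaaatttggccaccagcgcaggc
IFI6, chr1:27672252-27672310, minus strand: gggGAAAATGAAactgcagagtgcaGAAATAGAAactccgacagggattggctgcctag
IFI27, chr14:94110604-94110674, plus strand: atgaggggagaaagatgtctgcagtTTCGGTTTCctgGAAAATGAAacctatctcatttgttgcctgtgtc
IFIT3, chr10:89327817-89327909, plus strand: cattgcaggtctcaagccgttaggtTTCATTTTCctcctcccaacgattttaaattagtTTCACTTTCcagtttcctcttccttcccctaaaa
IFI44L, chr1:78620350-78620408, plus strand: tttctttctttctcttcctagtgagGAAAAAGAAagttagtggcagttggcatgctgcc
TAP1, chr6:32853798-32853862, minus strand: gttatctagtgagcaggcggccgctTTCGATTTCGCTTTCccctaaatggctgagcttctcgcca
EGR1, chr5:138465349-138465430, plus strand: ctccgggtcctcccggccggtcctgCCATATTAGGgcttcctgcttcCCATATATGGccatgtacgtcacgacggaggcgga
In ISG15 the matches overlap into one run of capitals, and in IFI6, IFI27 and IFIT3 they lie apart. Of 14 promoters of interferon-inducible genes searched singly, 7 held the core, the 6 shown and that of MX1. Those of OAS1, HLA-B, HLA-C, PSMB9, XAF1, IFI35 and UBE2L6, all genes that rose, held 0 matches. ISG15, a ubiquitin-like modifier induced by interferon, is a near neighbour of HES4 on the opposite strand, its annotated gene running from 1001138 to 1014540 on chromosome 1. The windows searched were 300 bases long, 250 before and 50 after the start, and the shares of all promoters with each motif are given further on. HES4's own window held none of the N-box, class C or E-box letters searched.

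Changes were many and mostly small. In shHES4 1004 genes (5.94% of those tested) passed an adjusted p of 0.05 against shCtrl, 547 higher (3.24%) and 457 lower (2.70%). The median fold among them was 1.214, at 1.247 for the genes that rose and 1.180 for those that fell. At least 1.5-fold were 172 genes, 106 higher and 66 lower, and at least 2-fold were 60, 34 higher and 26 lower. Of those 60, 52 had a mean under 5 CPM. A test against a minimum fold of 1.2 called 121 genes (0.716%), 85 higher and 36 lower. The share called followed the level. It was 1.13% of genes under 1 CPM, 2.93% from 1 to 5 CPM, 4.82% from 5 to 20, 7.94% from 20 to 200 and 17.5% at 200 CPM or more. The median SE of a log2 fold change was 0.426 under 1 CPM and 0.032 at 200 CPM or more, so that in the highest class genes with a median fold of 1.131 were called.

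**Figure D1:**
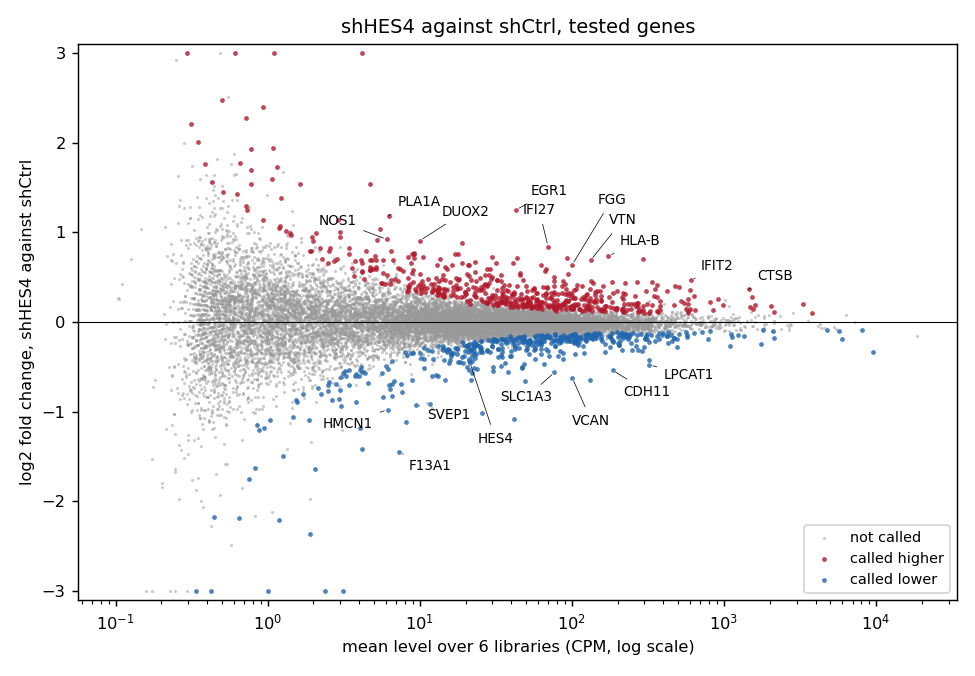
Log2 fold change of shHES4 against shCtrl (vertical axis, drawn at the edge beyond 3) against the mean level over the 6 libraries in CPM (horizontal log axis), for 16899 genes; red points were called higher, blue lower and grey not called. Called genes at high level sit close to 0, and most changes past 1 on the log2 scale belong to genes under 5 CPM.

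Of the gene lists counted, that of late interferon effectors had the largest share of members higher. Of 45 tested late effectors, among them guanylate-binding proteins, apolipoproteins L, PARP family members and TRIM ligases, 31 were higher and none lower (68.9%, where 3.24% of all genes were higher), with a median log2 fold change of 0.32 against 0.00 over all genes. The counts were 31 and 0 without shCtrl replicate 3. The test against a minimum fold of 1.2 called 11 of the 45, where it called 0.716% of all genes. Among lists described below it called 6 of 21 class I, 4 of 24 plasma protein, 1 of 16 complement and 1 of 25 JAK-STAT genes. It called 0 of 18 sensors and 0 of 24 ERK feedback genes. For every list counted against shCtrl, here and below, the shares over all tested genes were 3.24% higher and 2.70% lower. Those shares are not matched to the level of a list's members, and the share called followed the level. TRIM22, an antiviral ubiquitin ligase gene, read 32.6, 32.8 and 33.0 CPM in shCtrl and 52.6, 55.1 and 53.5 CPM in shHES4. Its groups lay far apart, with a log2 fold change of 0.71 ± 0.05 (adjusted p = 3.80e-08). PARP10, an ADP-ribosyltransferase gene, went from 16.8, 10.6 and 12.6 to 28.01, 22.7 and 23.7 CPM, again without overlap but with wide groups (0.89 ± 0.13, adjusted p = 2.30e-04). XAF1, a proapoptotic interferon target, stood at 32.4, 30.7 and 32.1 CPM in shCtrl and 48.4, 51.4 and 50.3 in shHES4 (0.66 ± 0.05, adjusted p = 3.41e-07). IFI44L read 23.7, 22.9 and 22.4 CPM in shCtrl and 31.2, 35.5 and 36.9 CPM in shHES4 (0.59 ± 0.06, adjusted p = 1.33e-05). UBE2L6, the conjugating enzyme for ISG15, APOL1, a trypanolytic apolipoprotein, and LGALS3BP, a secreted glycoprotein, rose by 0.40 ± 0.04, 0.40 ± 0.04 and 0.41 ± 0.03. APOBEC3G, a cytidine deaminase gene, was the one member with a negative estimate, at -0.53 ± 0.41 (adjusted p = 0.539), and it stayed under 1 CPM.

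Further interferon-inducible genes are described singly, as genes among the largest rises or smallest p, and not as a counted list. IFI6, an antiviral mitochondrial protein gene, read 241, 232 and 193 CPM in shCtrl and 365, 369.8 and 352 CPM in shHES4, where shCtrl replicate 3 was the lowest of the 6 (0.71 ± 0.06, adjusted p = 4.55e-07). IFI27 went from 50.7, 54.6 and 44.3 to 91.6, 91.3 and 85.4 CPM (0.84 ± 0.06, adjusted p = 7.02e-08). IFIT2 and IFIT3, which recognise foreign RNA ends, rose by 0.46 ± 0.03 and 0.39 ± 0.03, and MX1, a GTPase that blocks viral replication, by 0.44 ± 0.03. ISG15 stood at 326, 320.1 and 279 CPM in shCtrl and 405, 399 and 386 CPM in shHES4 (0.36 ± 0.04, adjusted p = 5.57e-05). Its groups were apart, and its p against a minimum of 1.2-fold was 0.32.

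Interferon-inducible genes also differed between the libraries of the 2 HES hairpins. Of the 45 late effectors, 32 were higher in shHES4 than in the libraries labelled shHES1 and none was lower, with a median difference of 0.30, where 7.65% of all genes were higher and 7.41% lower in that direct comparison. TRIM22 differed by 0.70 ± 0.05 (adjusted p = 6.71e-09) and XAF1 by 0.88 ± 0.05. IFI6 read 183, 179 and 190.4 CPM in the libraries labelled shHES1, a direct difference of 0.97 ± 0.06 (adjusted p = 2.39e-09). LGALS3BP was among those not called, at 516, 515 and 500.2 CPM in those libraries and a direct difference of 0.09 ± 0.03 (adjusted p = 0.055).

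Of 25 tested receptors, JAK-STAT members and feedback regulators, 7 were higher and none lower, with a median of 0.05. IRF7, the factor that amplifies type I interferon production, read 37.5, 35.9 and 39.8 CPM in shCtrl and 54.8, 52.6 and 54.9 CPM in shHES4, with no overlap (0.52 ± 0.05, adjusted p = 8.89e-06). STAT2, a factor that interferon receptors activate, rose by 0.36 ± 0.04, IRF1 by 0.22 ± 0.04, and USP18, which removes ISG15 and dampens the receptor, by 0.38 ± 0.05. Of 18 tested sensors and inducers of interferon, 5 were higher and none lower. The DNA sensor gene IFI16 rose by 0.38 ± 0.05, the RNA sensor gene RIGI by 0.31 ± 0.04 and NLRC5, a transactivator of class I genes, by 0.25 ± 0.05. TRIM25 was at 0.13 ± 0.03 and TLR3 at 0.32 ± 0.09. The call of TLR3 (adjusted p = 0.0452) ended in 12 of 17 alternatives, with adjusted p up to 0.182. Directly against the libraries labelled shHES1, 6 of the 18 were higher and none lower, where 7.65% and 7.41% of all genes were. RIGI differed by 0.45 ± 0.04 in that comparison. IFI16 stood at 75.5, 75.8 and 74.2 CPM in the libraries labelled shHES1, a direct difference of 0.05 ± 0.05 (adjusted p = 0.578).

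Of 21 tested genes of MHC class I, peptide loading and the immunoproteasome 11 rose and none fell, with a median of 0.24. HLA-B read 134, 127 and 130.2 CPM in shCtrl and 224, 217 and 211 CPM in shHES4, among the smallest p of all genes (0.74 ± 0.03, adjusted p = 7.97e-10). HLA-C went from 277, 285 and 291 to 397, 384 and 385 CPM (0.45 ± 0.03), and the nonclassical HLA-F rose by 0.59 ± 0.06. The groups were apart for each of these. The peptide transporter gene TAP1 stood at 118, 116 and 116 CPM in shCtrl and 158, 156 and 159 in shHES4 (0.43 ± 0.03, adjusted p = 1.57e-07). PSMB9, an immunoproteasome subunit gene, rose by 0.55 ± 0.07, and B2M, the light chain of class I, by 0.19 ± 0.03. Of 33 constitutive proteasome subunits and assembly factors 1 was higher (PSMA5, 0.16 ± 0.04, a call that ended in 8 of 17 alternatives). The chaperone genes CANX, CALR and PDIA3 were not called, at -0.06 ± 0.03, 0.03 ± 0.03 and 0.00 ± 0.03. Reads of the HLA genes can be split between near-identical copies, the annotated spans of HLA-B and HLA-C overlap as do those of PSMB9 and TAP1, and strand use in the counting is unknown, which makes single members uncertain. Against the libraries labelled shHES1, 13 of the 21 were higher and none lower, HLA-B by 0.52 ± 0.03 and TAP1 by 0.51 ± 0.03.

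**Figure D2:**
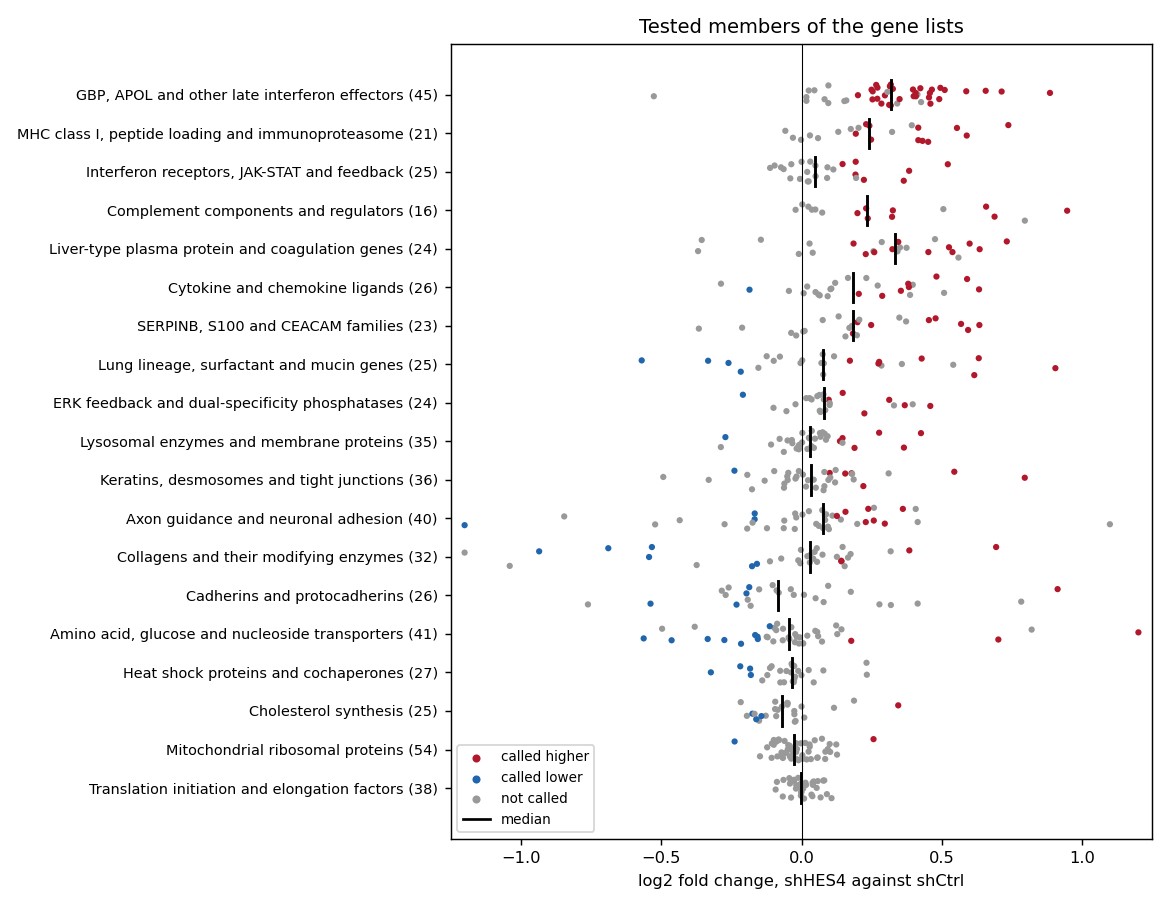
Log2 fold change of shHES4 against shCtrl for each tested member of 19 gene lists (numbers of members in parentheses), drawn at the edge beyond 1.2; red, called higher; blue, called lower; grey, not called; black bar, median. The interferon, class I, complement and plasma protein lists lie to the right, while translation factors cluster at 0.

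EGR1 had the largest rise among the named genes with a mean of at least 5 CPM. EGR1, a zinc finger factor (chromosome 5, 138465490 to 138469315, plus strand), read 25.3, 24.1 and 26.9 CPM in shCtrl and 59.4, 57.7 and 64.3 CPM in shHES4, at means of 25.4 ± 1.39 and 60.5 ± 3.44 CPM (SD, n = 3). Every shHES4 library held more than 2-fold the level of any shCtrl library, and the adjusted p was among the smallest (1.25 ± 0.06, adjusted p = 5.22e-10). The libraries labelled shHES1 lay between, at 35.3, 36.6 and 34.2 CPM, 0.77 ± 0.05 below shHES4 on the log2 scale (adjusted p = 1.27e-08). Other immediate early genes are described singly, since no list of them was counted. FOS, an AP-1 subunit gene, stood at 72.3, 65.7 and 73.1 CPM in shCtrl, 111, 117 and 117 in shHES4 and 69.9, 76.0 and 72.9 in those labelled shHES1, the last overlapping shCtrl. Its log2 fold change was 0.71 ± 0.05 against shCtrl (adjusted p = 3.80e-08) and 0.66 ± 0.04 against the libraries labelled shHES1. FOSB, another AP-1 subunit gene, went from 2.96, 2.37 and 1.92 to 7.21, 6.40 and 7.54 CPM (1.54 ± 0.16, adjusted p = 7.63e-06). JUNB, a partner of both that was named after its value was seen, read 124, 123 and 126 CPM in shCtrl and 166, 154 and 154 CPM in shHES4 (0.34 ± 0.04, adjusted p = 8.22e-06). ATF3, a stress-induced factor, read 10.5, 11.7 and 12.8 CPM in shCtrl and 16.6, 17.9 and 18.9 CPM in shHES4 (0.62 ± 0.09, adjusted p = 4.33e-04).

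Of 24 tested feedback genes and dual-specificity phosphatases, 6 were higher and 1 lower, with a median of 0.08. DUSP6, a phosphatase of ERK, read 28.8, 31.5 and 26.8 CPM in shCtrl and 42.4, 39.7 and 37.4 CPM in shHES4 (0.46 ± 0.06, adjusted p = 1.95e-04). The nuclear phosphatase genes DUSP5 and DUSP1 rose by 0.37 ± 0.05 and 0.31 ± 0.04, and IER2, an immediate early gene, by 0.22 ± 0.03. DUSP16, which acts on JNK and p38, rose by 0.15 ± 0.03 (adjusted p = 0.00961, and 0.0550 without shHES4 replicate 3). Of 12 tested EGF receptor family members and ligands, AREG and EREG rose and NRG1 fell. AREG, the amphiregulin gene, read 40.7, 39.7 and 40.1 CPM in shCtrl and 56.7, 55.7 and 54.3 CPM in shHES4 (0.47 ± 0.04, adjusted p = 2.11e-06), and EREG, the epiregulin gene, 82.1, 84.4 and 84.1 CPM in shCtrl and 92.8, 104 and 99.3 CPM in shHES4 (0.24 ± 0.04, adjusted p = 0.00246). NRG1, the neuregulin gene, was at -0.12 ± 0.03, and its call ended in 9 of 17 alternatives. Among nuclear receptors, the immediate early members NR4A1 and NR4A2 rose by 0.32 ± 0.04 and 0.38 ± 0.09, the latter losing its call in 4 of 17 alternatives. ZFP36, whose protein destabilises cytokine messages, read 86.0, 86.4 and 104 CPM in shCtrl, with replicate 3 the highest, and 126, 117 and 126 CPM in shHES4 (0.42 ± 0.06, adjusted p = 3.59e-04). Of 24 tested actin and contractile targets of serum response factor and MRTF, 3 were higher, TPM2 by 0.17 ± 0.03, TPM1 by 0.14 ± 0.03 and MYL12A by 0.14 ± 0.04, with a median of 0.01 and the call of MYL12A ending in 7 of 17 alternatives.

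**Figure D3:**
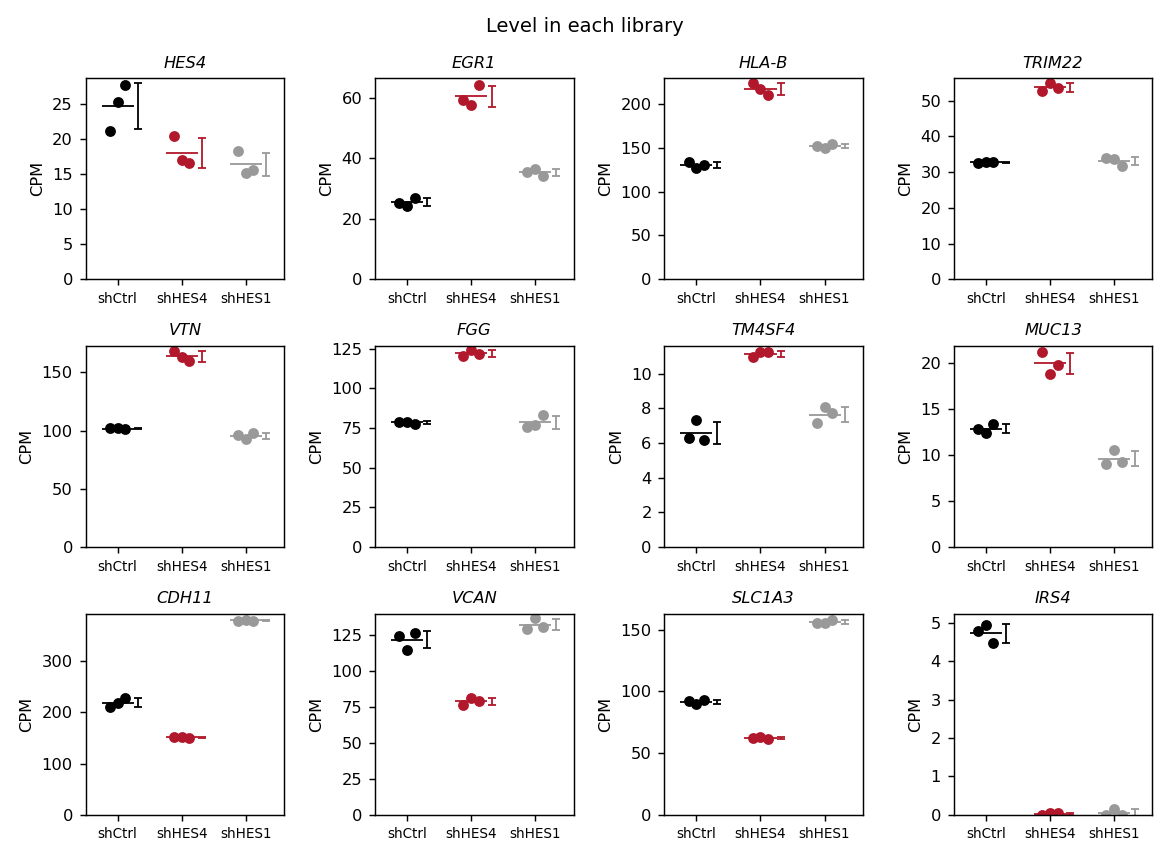
Level in CPM (vertical axes from 0) of 12 genes in each library of shCtrl, shHES4 and the libraries labelled shHES1; points are libraries, horizontal lines means and bars at the side 1 SD (n = 3). For EGR1, HLA-B, TRIM22, VTN and FGG the shHES4 libraries lie above both other groups, and for CDH11, VCAN and SLC1A3 below them.

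Of 24 tested genes of plasma proteins and coagulation, 11 were higher and none lower (45.8%), with a median of 0.33, and the counts were 11 and 0 without shCtrl replicate 3. The list does not hold F13A1, the coagulation factor XIII A chain gene, which fell by 1.45 ± 0.11. The fibrinogen chains moved together. FGG read 78.9, 79.0 and 77.7 CPM in shCtrl, 120.1, 124 and 122 in shHES4 and 75.6, 77.1 and 83.1 in the libraries labelled shHES1, so that only the shHES4 libraries stood apart (0.63 ± 0.04, adjusted p = 3.41e-08). FGB went from 74.5, 77.1 and 80.3 to 109.7, 116 and 111 CPM (0.54 ± 0.04, adjusted p = 9.21e-08), and FGA from 157, 158 and 151 to 216, 210.5 and 210.5 CPM (0.45 ± 0.03, adjusted p = 9.97e-08). Direct differences from the libraries labelled shHES1 were 0.63 ± 0.04, 0.61 ± 0.04 and 0.54 ± 0.03. PROS1, the gene of anticoagulant protein S, rose by 0.53 ± 0.05, RBP4, the plasma retinol carrier gene, by 0.73 ± 0.14, and TFPI2, a protease inhibitor gene, by 0.26 ± 0.03. PROS1 also stood higher in the libraries labelled shHES1 (37.0, 38.3 and 37.1 CPM against 28.4, 26.6 and 28.6 in shCtrl and 40.5, 40.0 and 39.9 in shHES4), where the direct difference was 0.10 ± 0.05 (adjusted p = 0.178).

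Of 16 tested complement genes, 8 were higher and none lower, with a median of 0.23. VTN, the gene of vitronectin, which binds cells, plasminogen activator inhibitor and the terminal complement complex, read 102, 102 and 101 CPM in shCtrl, 169, 163 and 159.6 in shHES4 and 95.8, 92.8 and 97.8 in the libraries labelled shHES1 (0.69 ± 0.03, adjusted p = 2.06e-09; direct difference 0.78 ± 0.03). CFB, a convertase component of the alternative pathway, stood at 195, 198 and 183 CPM in shCtrl and 241, 242 and 239.9 CPM in shHES4 (0.33 ± 0.03, adjusted p = 6.33e-06). C5 rose by 0.32 ± 0.05 and the classical pathway protease gene C1S by 0.23 ± 0.03. C3, the central component, was not called (0.02 ± 0.03, adjusted p = 0.71), nor were the membrane regulators CD46, CD55 and CD59. C1S was also higher in the libraries labelled shHES1 than in shCtrl, at 382, 373 and 382 CPM.

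Cytokine genes rose in 8 of 26 tested cases (30.8%) and fell in 1 (3.85%). CXCL11, a chemokine that interferon gamma induces, read 10.4, 8.78 and 11.3 CPM in shCtrl and 15.3, 16.6 and 15.4 CPM in shHES4 (0.63 ± 0.09, adjusted p = 2.67e-04). TNFSF10, the death ligand TRAIL, went from 11.4, 11.4 and 13.4 to 18.4, 17.1 and 19.02 CPM (0.59 ± 0.09, adjusted p = 4.08e-04). TNFSF15 rose by 0.48 ± 0.08 and the chemokine gene CCL5 by 0.20 ± 0.03, whereas CXCL1, a neutrophil attractant, read 144, 148 and 149 CPM in shCtrl and 132, 129.5 and 126 CPM in shHES4 (-0.19 ± 0.03, adjusted p = 0.00204). CXCL11 and TNFSF15 were higher than in shCtrl in the libraries labelled shHES1 as well, with direct differences of 0.17 ± 0.09 and -0.03 ± 0.08 (adjusted p = 0.232 and 0.863).

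Other single genes with large rises follow, with no list counted for them unless one is named. TM4SF4 and TM4SF20, genes of four-pass membrane proteins of intestine and liver, both rose. TM4SF4 read 6.30, 7.30 and 6.17 CPM in shCtrl and 10.97, 11.2 and 11.3 CPM in shHES4, and TM4SF20 read 7.03, 6.84 and 6.88 CPM in shCtrl and 10.9, 11.9 and 11.3 CPM in shHES4 (0.76 ± 0.10 and 0.72 ± 0.10, adjusted p = 8.26e-05 and 1.66e-04). CDH17, the intestinal cadherin gene, went from 3.30, 3.38 and 4.29 to 6.64, 7.28 and 6.72 CPM (0.91 ± 0.14, adjusted p = 4.23e-04), one of 26 tested cadherins and the one that rose. MUC13, a membrane mucin gene, read 12.8, 12.4 and 13.4 CPM in shCtrl and 21.1, 18.8 and 19.8 CPM in shHES4, and 9.04, 10.5 and 9.22 in the libraries labelled shHES1 (0.63 ± 0.08, direct difference 1.05 ± 0.08). ACSL5, an acyl-CoA synthetase gene, rose by 0.72 ± 0.10, HGD, of tyrosine breakdown, by 0.75 ± 0.09, and ABCC6, an efflux transporter gene, by 0.79 ± 0.13. The carboxypeptidase M gene, of symbol CPM, rose by 0.73 ± 0.09, and DHRS2, a short-chain dehydrogenase gene, went from 13.1, 14.2 and 12.6 to 21.99, 23.4 and 22.4 in the scaled unit (0.76 ± 0.07, adjusted p = 2.81e-06). Of 25 tested lung lineage, surfactant and mucin genes 7 were higher and 4 lower, so the list as a whole had no single direction (median 0.08). AGR2, a disulfide isomerase of mucus-producing cells, rose by 0.27 ± 0.03, and ABCA3, the lipid transporter of surfactant bodies, fell by 0.22 ± 0.04. The mucin gene MUC1 was called lower in shHES4. Its log2 fold change ran from -0.44 to -0.25 over the 17 alternatives, and its call ended in 4 of them.

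PLA1A, a phosphatidylserine-specific phospholipase gene, read 3.76, 4.35 and 3.33 CPM in shCtrl and 9.29, 8.51 and 8.28 CPM in shHES4 (1.19 ± 0.13, adjusted p = 1.68e-05). NOS1, the neuronal nitric oxide synthase gene, went from 4.56, 4.18 and 3.88 to 7.12, 8.77 and 8.04 CPM (0.92 ± 0.13, adjusted p = 2.43e-04), and it was lower in the libraries labelled shHES1, at 1.77, 2.12 and 2.30 CPM, so that the direct difference reached 1.95 ± 0.14. DUOX2, a hydrogen peroxide-forming oxidase gene, read 5.81, 7.52 and 7.54 CPM in shCtrl and 12.7, 13.7 and 12.6 CPM in shHES4 (0.91 ± 0.10, adjusted p = 2.08e-05). Its maturation factor gene DUOXA2, which overlaps it at one end, went from 0.949, 0.633 and 0.917 to 2.35, 2.24 and 2.71 CPM (1.53 ± 0.24, adjusted p = 5.33e-04). In the libraries labelled shHES1 DUOX2 read 11.8, 11.3 and 12.2 CPM and DUOXA2 2.24, 1.58 and 2.00 CPM, with direct differences of 0.14 ± 0.10 and 0.32 ± 0.21 that did not pass the test. SLC40A1, the iron exporter ferroportin, rose from 7.75, 6.29 and 6.17 to 11.6, 11.6 and 11.4 CPM (0.77 ± 0.12, adjusted p = 3.75e-04), while the ferritin genes FTH1 and FTL and the reductase gene STEAP3 were at -0.11 ± 0.03, -0.09 ± 0.02 and -0.21 ± 0.05. The calls of FTH1, whose groups overlapped, and FTL ended in 9 and 7 of 17 alternatives. TRIM31, a ubiquitin ligase gene, rose by 0.76 ± 0.12.

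Of 23 tested genes of the SERPINB, S100 and CEACAM families 8 were higher (34.8%) and none lower, with a median of 0.18. CEACAM1, an adhesion molecule and immune checkpoint, read 52.0, 52.5 and 56.4 CPM in shCtrl and 83.9, 78.1 and 80.6 CPM in shHES4 (0.59 ± 0.05, adjusted p = 3.41e-07). In the libraries labelled shHES1 it stood at 78.3, 80.4 and 73.4 CPM, a direct difference of 0.06 ± 0.05 that did not pass the test. CEACAM6 went from 109, 110.5 and 118 to 158, 153 and 152 CPM (0.45 ± 0.04) and lay below shCtrl in those libraries, at 71.6, 66.2 and 70.8 CPM, a direct difference of 1.15 ± 0.04 (adjusted p = 6.05e-12). SERPINB3, a squamous cell protease inhibitor gene, and S100A9, of the calprotectin dimer, rose by 0.63 ± 0.06 and 0.48 ± 0.08, by less than in the libraries labelled shHES1 (direct differences -0.43 ± 0.06 and -0.59 ± 0.08). Among 36 tested keratins and junction genes 6 rose (16.7%) and 1 fell (2.78%). KRT19 was at 0.54 ± 0.06, the hair keratin gene KRT81 at 0.18 ± 0.03 and the desmosomal gene PKP3 at -0.24 ± 0.05.

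Of the 37 tested Wnt pathway genes 3 rose (8.11%) and 2 fell (5.41%), where 3.24% of all genes were higher and 2.70% lower. SFRP1, a secreted Wnt antagonist gene, read 49.0, 48.0 and 50.3 CPM in shCtrl, 75.3, 75.3 and 78.7 in shHES4 and 49.9, 51.1 and 50.3 in the libraries labelled shHES1 (0.64 ± 0.04, adjusted p = 3.41e-08). DKK1, another antagonist gene, went from 308, 313 and 318 to 393, 378 and 378 CPM (0.29 ± 0.03, adjusted p = 5.49e-06) and stood at 190.1, 187 and 191 in those libraries. WIF1, a secreted Wnt inhibitor gene, fell from 2.89, 3.25 and 3.12 to 1.33, 0.833 and 0.820 CPM (-1.63 ± 0.19, adjusted p = 2.84e-05), against 8.21, 8.79 and 8.02 CPM there, so that the direct difference was -3.07 ± 0.17. The stem cell receptor gene LGR5 was at -0.87 ± 0.23, a call that ended in 5 of 17 alternatives.

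Among lysosomal genes 6 of 35 were higher (17.1%) and 1 lower (2.86%). CTSB, a cathepsin gene, read 1268, 1283 and 1251 CPM in shCtrl and 1653, 1639 and 1604 CPM in shHES4 (0.36 ± 0.02, adjusted p = 5.23e-08). CTSL, another cysteine protease gene, went from 1404, 1408 and 1348 to 1699, 1688 and 1652 CPM (0.28 ± 0.03, adjusted p = 2.81e-06), and CTSS, which trims antigen, from 80.3, 78.0 and 71.7 to 106, 104 and 98.9 CPM (0.43 ± 0.05, adjusted p = 1.33e-05). For all 3 the groups were apart. PSAP, the precursor of sphingolipid activators, and NPC1, a cholesterol exporter of the lysosome, rose by 0.15 ± 0.03 and 0.14 ± 0.02. The list's median was 0.03, and of 29 autophagy genes OPTN and CALCOCO2 were called, at 0.19 ± 0.04 and 0.15 ± 0.04, and the calls ended in 1 and 10 of 17 alternatives.

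CDH11, a mesenchymal cadherin gene, read 210.0, 219 and 229 CPM in shCtrl and 152, 152 and 149 CPM in shHES4 (-0.54 ± 0.03, adjusted p = 3.41e-08), against 379.8, 381 and 379.8 CPM in the libraries labelled shHES1. The direct difference was -1.33 ± 0.03 (adjusted p = 6.71e-14). VCAN, the gene of the proteoglycan versican, stood at 124, 115 and 126 CPM in shCtrl and 76.6, 81.6 and 79.4 in shHES4 (-0.62 ± 0.04, adjusted p = 5.98e-08). HMCN1, the gene of hemicentin, a matrix protein of epithelial junctions, went from a mean of 8.17 ± 0.203 to 4.15 ± 0.678 CPM (SD, n = 3, -0.98 ± 0.12, adjusted p = 6.16e-05) and SVEP1, a matrix adhesion protein gene, from 12.5, 12.2 and 12.2 to 6.46, 6.75 and 6.31 CPM (-0.92 ± 0.09, adjusted p = 3.41e-06). SVEP1 was also low in the libraries labelled shHES1, at 7.37, 7.67 and 7.23 CPM, where HMCN1 was high, at 12.3, 14.4 and 14.2 CPM. Of 26 tested cadherins and protocadherins 4 fell (15.4%) and 1 rose (3.85%). N-cadherin (CDH2) was at -0.19 ± 0.04 and the atypical cadherin genes CELSR1 and CELSR2 at -0.23 ± 0.03 and -0.20 ± 0.05.

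Collagens moved both ways. Of 32 tested collagens and modifying enzymes 6 fell (18.8%) and 4 rose (12.5%), with a median of 0.03. COL1A1, a chain of fibrillar collagen, read 8.39, 11.2 and 8.38 CPM in shCtrl and 5.97, 5.88 and 5.45 CPM in shHES4 (-0.69 ± 0.12, adjusted p = 0.0012). COL12A1 went from 38.3, 33.7 and 35.8 to 21.6, 26.8 and 25.6 CPM (-0.54 ± 0.07) and COL8A1 from 4.10, 4.39 and 3.50 to 1.95, 1.97 and 2.34 CPM (-0.93 ± 0.15). COL6A1, of beaded filaments, rose by 0.38 ± 0.07. Against the libraries labelled shHES1, 18 of the 32 were lower and 1 higher in shHES4, with a median difference of -0.28, where 7.41% of all genes were lower. In shHES1 against shCtrl, which shares the control libraries, the median of the same list was 0.25. Among 27 tested matrix proteases and inhibitors 2 rose and 2 fell (7.41% each). ADAMTS1, a secreted protease gene, fell from 3.80, 3.00 and 2.75 to 0.487, 0.877 and 0.492 CPM (-2.36 ± 0.27, adjusted p = 1.95e-05) and MMP16 by 0.36 ± 0.06, while ADAM19 and TIMP1 rose by 0.26 ± 0.04 and 0.18 ± 0.04. ADAMTS1 was also low in the libraries labelled shHES1, at 1.19, 1.00 and 0.903 CPM. Its direct difference of -0.74 ± 0.30 did not pass the test (adjusted p = 0.112).

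Transporters of amino acids, glucose and nucleosides fell in 9 of 41 tested cases and rose in 3. SLC1A3, a glutamate transporter gene, read 92.3, 89.7 and 92.8 CPM in shCtrl, 62.0, 63.0 and 61.2 in shHES4 and 155, 156 and 158 in the libraries labelled shHES1 (-0.56 ± 0.04, adjusted p = 3.41e-08; direct difference -1.33 ± 0.03). SLC29A1, the equilibrative nucleoside transporter, went from 54.0, 56.5 and 58.0 to 41.4, 41.1 and 39.8 CPM (-0.46 ± 0.05, adjusted p = 5.05e-06), and SLC6A6, the taurine transporter, from 320.4, 325 and 329 to 259, 271 and 275 CPM (-0.27 ± 0.03). SLC7A7, which exports cationic amino acids, rose from 9.80, 9.96 and 11.5 to 18.01, 16.9 and 15.9 CPM (0.70 ± 0.09, adjusted p = 5.45e-05).

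Among the named genes the largest fall at 5 CPM or more was that of F13A1, the gene of the coagulation factor XIII A chain, from 11.3, 10.5 and 10.3 to 4.56, 3.86 and 3.36 CPM (-1.45 ± 0.11, adjusted p = 1.95e-07). Its level in the libraries labelled shHES1 was 13.3, 13.6 and 13.3 CPM. NR3C2, the mineralocorticoid receptor gene, went from 7.44, 6.63 and 8.04 to 3.76, 4.60 and 4.02 CPM (-0.84 ± 0.12, adjusted p = 2.86e-04), and PLXDC2, a membrane receptor gene, from 8.66, 8.11 and 8.50 to 3.94, 5.35 and 4.96 CPM (-0.83 ± 0.12, adjusted p = 2.60e-04). AMOT, whose protein retains the coactivator YAP, fell by 0.78 ± 0.11 and the aldolase gene ALDOC by 0.74 ± 0.12. The neuronal vesicle gene SYT1 fell by 0.51 ± 0.08, while CHGB, the gene of secretogranin 1, rose from 23.2, 24.9 and 25.3 to 39.2, 37.2 and 39.1 CPM (0.66 ± 0.05, adjusted p = 3.63e-07). At 200 CPM or more the largest falls were those of LPCAT1, a surfactant lipid enzyme gene, from 367, 381 and 382 to 270.1, 262 and 279.5 CPM (-0.48 ± 0.03, adjusted p = 6.06e-08), and of RTN4, a reticulon of the endoplasmic reticulum, from 358, 364 and 389 to 284, 274 and 268 CPM (-0.43 ± 0.03, adjusted p = 4.31e-07). All the groups in this paragraph were apart.

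Several of the other large falls had wide groups in which shCtrl replicate 1 lay nearest to shHES4. LRP11, a membrane receptor gene, read 40.9, 62.1 and 66.7 CPM in shCtrl and 31.3, 26.2 and 22.6 CPM in shHES4 (-1.08 ± 0.17, adjusted p = 4.72e-04). CHCHD10, a mitochondrial protein gene, read 20.9, 41.8 and 39.7 CPM in shCtrl and 19.7, 15.6 and 15.4 CPM in shHES4 (-1.01 ± 0.21, adjusted p = 0.00768), with shCtrl replicate 1 close to shHES4 replicate 1. CEBPB, a transcription factor of inflammation and metabolism, stood at 128, 168 and 182 CPM in shCtrl and 123, 93.6 and 89.7 in shHES4 (-0.64 ± 0.13, adjusted p = 0.00484). The share of G and C in the transcript was 68.4% for CHCHD10, 66.2% for CEBPB, 73.5% for CITED4 and 73.2% for C4orf48. With a correction for GC content and length their log2 fold changes were -0.94, -0.61, -0.82 and -1.02, against -1.01 ± 0.21, -0.64 ± 0.13, -0.91 ± 0.19 and -1.11 ± 0.22 without it. CITED4, a coactivator gene, lost its call without shHES4 replicate 3 (adjusted p = 0.0549), FAM89B in 3 and DNLZ in 5 of 17 alternatives. EBPL, CTU1, NDUFAF8 and NUMBL kept theirs in all 17, at -0.64 ± 0.12, -0.65 ± 0.14, -0.66 ± 0.13 and -0.64 ± 0.12. Against the libraries labelled shHES1, LRP11 and CHCHD10 differed by -0.21 ± 0.17 and -0.35 ± 0.22, which did not pass the test. Nor did CEBPB (-0.28 ± 0.13), C4orf48 (-0.62 ± 0.22), FAM89B (-0.40 ± 0.15), DNLZ (-0.12 ± 0.19), EBPL (-0.01 ± 0.12) and CTU1 (-0.04 ± 0.14). CITED4 (-0.69 ± 0.20), NDUFAF8 (-0.51 ± 0.13) and NUMBL (-0.52 ± 0.12) were lower in that direct comparison.

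Genes of 1 to 5 CPM changed by more, on fewer counts. HFM1, a meiotic helicase gene, read 1.48, 0.169 and 0.875 CPM in shCtrl and 5.58, 8.33 and 8.53 CPM in shHES4, apart in spite of wide groups (3.12 ± 0.45, adjusted p = 2.60e-04). SLC6A14, an amino acid transporter gene, went from 0.418, 0.507 and 0.417 to 2.48, 1.36 and 1.35 CPM (1.94 ± 0.32, adjusted p = 8.12e-04), and was at 1.59, 1.58 and 1.62 CPM in the libraries labelled shHES1. CES1, a liver carboxylesterase gene, rose from 0.532, 0.507 and 0.542 to 2.04, 1.40 and 1.84 CPM (1.73 ± 0.29, adjusted p = 0.00113), and CPSF1P1, a pseudogene, by 1.60 ± 0.29. CHML, a Rab escort protein gene, read 0.418, 7.73 and 9.83 CPM in shCtrl and 0.310, 0.395 and 0.123 in shHES4, so that 2 of the 3 shCtrl libraries carry the difference (-4.42 ± 1.00, adjusted p = 0.0124). The call of CHML ended when any shHES4 library was left out (adjusted p from 0.0534 to 0.0685). ZC3H10, an RNA-binding protein gene, had a like pattern, at 0.759, 2.83 and 1.96 CPM in shCtrl and 0.0885, 0.219 and 0.205 CPM in shHES4 (-3.38 ± 0.67, adjusted p = 0.00471). The readthrough transcript STIMATE-MUSTN1, which shares exons with its neighbours, was at -2.20 ± 0.49 and lost its call in DESeq2 (adjusted p = 0.0825).

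Lists of housekeeping systems held few called genes. None of 38 translation factors and none of 26 genes of fatty acid oxidation and peroxisomes was called, with medians of 0.00 and -0.01. Of 54 mitochondrial ribosomal protein genes 1 rose and 1 fell, of 43 spliceosome genes 1 fell (PRPF8, -0.19 ± 0.03), and of 57 chromatin remodelers and histone modifiers KMT2C and NSD2 fell, by 0.22 ± 0.05 and 0.14 ± 0.04. Of 43 DNA repair genes BRCA2 and PARP1 fell, by 0.28 ± 0.07 and 0.13 ± 0.03. Of these lists the largest share lower was 4.65%, for DNA repair, where 2.70% of all genes were lower. Over the alternatives the number of members lower ran from 1 to 7 for chromatin genes, 0 to 4 for DNA repair, 1 to 4 for the spliceosome and 0 to 3 for mitochondrial ribosomal proteins. The call of NSD2 ended in 6 of 17 alternatives, that of PARP1 in 3 and that of BRCA2 in 2. Of 500 genes of the ZNF and related zinc finger families 7 rose and 3 fell, with a median of 0.01.

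Of 27 heat shock proteins and cochaperones 4 fell and none rose, HSPA1B from 307, 324 and 329 to 262, 255 and 250.5 CPM (-0.32 ± 0.03, adjusted p = 6.18e-06) and HSP90AA1 by 0.18 ± 0.03. HSPA1B and HSPA1A are near-identical copies. HSPA1B read 259, 254 and 257 CPM in the libraries labelled shHES1, a direct difference of -0.01 ± 0.03. Of 25 genes of cholesterol synthesis and its control 3 fell and 1 rose, the number lower running from 2 to 9 over the alternatives. FASN, fatty acid synthase, fell by 0.19 ± 0.04. Of 41 aldo-keto reductases, P450 and conjugating enzymes 3 rose and 3 fell, with AKR1C2 at -0.27 ± 0.03, AKR1C3 at -0.21 ± 0.03 and the vitamin D hydroxylase gene CYP24A1 at 0.24 ± 0.03. Of 13 mitochondrially encoded protein genes MT-CO3 and MT-ND4L fell, by 0.18 ± 0.04 and 0.17 ± 0.04, with 0 to 7 lower over the alternatives. The share of mitochondrial counts was highest in shCtrl replicate 3, and without that library MT-CO3 was at -0.12 (adjusted p = 0.00852) and MT-ND4L at -0.12 (adjusted p = 0.0620). The mitochondrial ribosomal RNA MT-RNR2 fell by 0.33 ± 0.03, and by 0.28 without it.

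Some called genes were next to each other on the chromosome. In the order of tested genes, 4 runs of 3 and 62 pairs were called higher, and 17 pairs lower. Over all tested genes 3.24% were called higher and 2.70% lower. How many neighbours those shares alone would give was not computed, so the counts are description only. Among the runs of 3 were the fibrinogen genes FGB, FGA and FGG on chromosome 4, the mucin genes MUC2, MUC5AC and MUC5B on chromosome 11, and OAS1, OAS3 and OAS2 on chromosome 12. Each of these is a family of related genes. MUC5AC, a secreted airway mucin, read 244, 245 and 277 CPM in shCtrl and 282, 271 and 309 CPM in shHES4, where the groups overlapped (0.17 ± 0.05, adjusted p = 0.0499), and its call ended in 9 of 17 alternatives. MUC5B stood at 309.5, 306 and 366 CPM in shCtrl and 388, 369 and 432 CPM in shHES4 (0.28 ± 0.06, adjusted p = 0.00842). The calls of MUC5B and MUC2 ended in 2 and 3 of 17 alternatives. In the libraries labelled shHES1 MUC5AC read 189, 189.6 and 182 CPM and MUC5B 291, 296 and 285 CPM, and the direct differences were 0.62 ± 0.05 and 0.45 ± 0.06. OAS1, OAS3 and OAS2, sensors that activate RNase L, rose by 0.44 ± 0.03, 0.21 ± 0.03 and 0.32 ± 0.04.

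**Figure D4:**
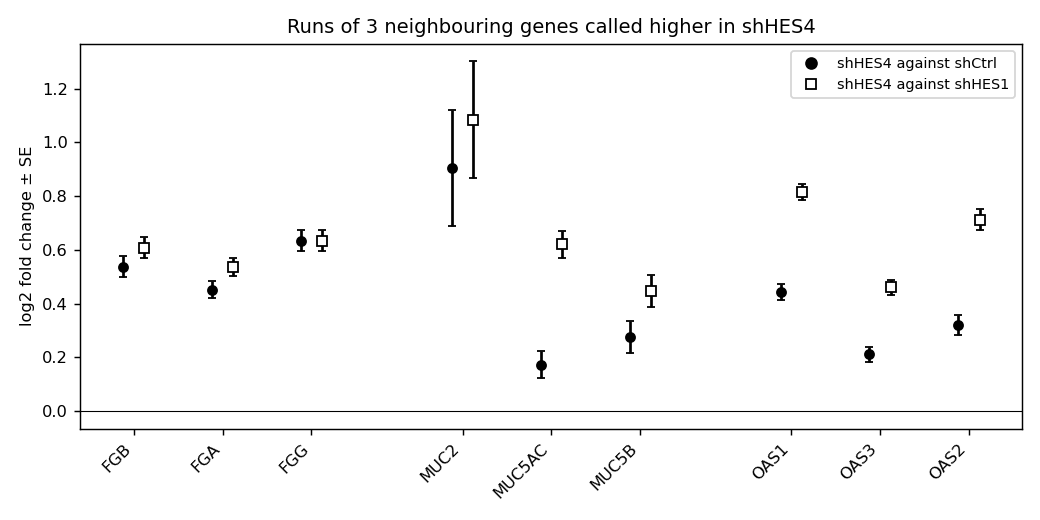
Log2 fold change with its SE of the genes in 3 runs of 3 neighbours called higher, for shHES4 against shCtrl (filled) and against the libraries labelled shHES1 (open squares). For the fibrinogen genes both values are alike, and for the mucin and OAS genes the direct difference is the larger.

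Promoters were then searched for short motifs on both strands. A RefSeq promoter matched by symbol for 11908 of the 16903 genes, 389 of them called higher and 338 lower. The interferon-stimulated response element core GAAANNGAA was in 6.74% of all promoters, 19.5% of those called higher (76 of 389) and 5.03% of those called lower. It was in 59.4% of 32 late interferon effector promoters and 52.9% of 17 class I promoters, and in none of 20 promoters of plasma protein genes. The STAT letters TTCNNNGAA were in 6.43%, 10.8% and 3.55% of all, higher and lower promoters, and the AP-1 letters TGANTCA in 4.89%, 8.23% and 2.96%. CArG boxes were in 0.983% of all promoters, 2.06% of those called higher and 0.888% of those called lower. EGR1 held 2 of them in the stretch shown above, and the windows of FOS, FOSB and JUNB held 0. Of the letters bound by hairy and enhancer of split factors, the N-box CACNAG was in 34.8%, 37.3% and 31.7% of all, higher and lower promoters, the class C site CACGCG in 17.7%, 14.1% and 21% and the E-box CACGTG in 9.88%, 5.91% and 9.17%. EGR letters GTGGGCG were in 14.7%, 10.8% and 16.3%. These shares describe letters in a window and show no binding. The STAT and response element letters can overlap in one promoter.

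**Figure D5:**
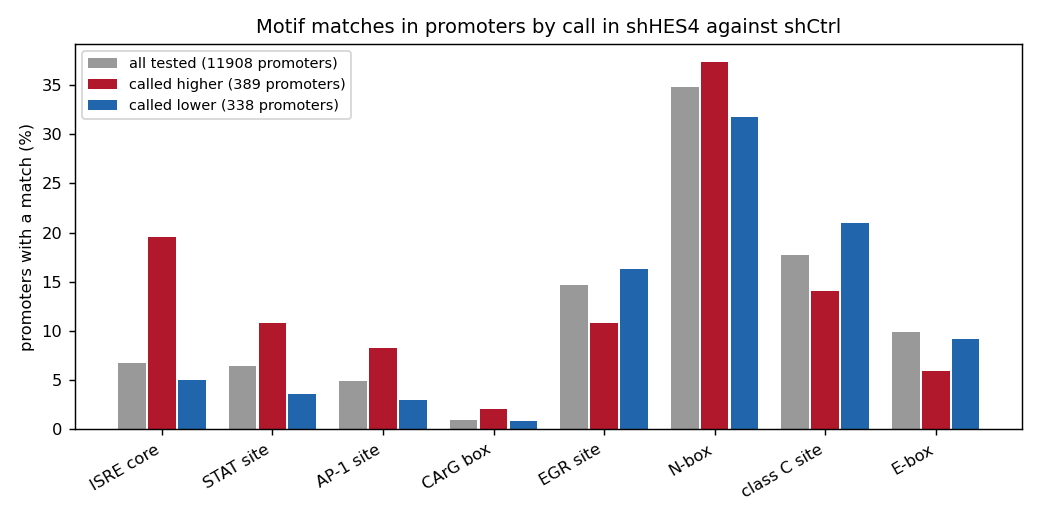
Share of RefSeq promoters (300 bases) with a match to each motif on either strand, in percent, for all tested genes, genes called higher and genes called lower in shHES4 against shCtrl. The ISRE core (interferon-stimulated response element) stands at 19.5% of promoters called higher against 6.74% of all.

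Transcript length moved slightly with the fold change. The median log2 fold change was 0.02 in the shortest 20% of transcripts (up to 1861 bases) and -0.02 in the longest (from 5648 bases), and calls ran to 110 higher and 67 lower in the former and to 104 and 155 in the latter. Across 5 equal classes of GC content the medians ran from -0.01 to 0.01. A part of length in single calls was not tested, but with a correction for both measures 622 genes were higher and 625 lower. The long matrix transcripts that fell kept their values under it, at -0.59 for VCAN, -0.94 for HMCN1 and -0.89 for SVEP1.

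Called directly against the libraries labelled shHES1, 1293 genes (7.65% of those tested) were higher and 1253 (7.41%) lower in shHES4. The direct counts of list members that follow are to be read beside those shares. Of the 18 snoRNA host and growth-arrest noncoding genes 9 were higher and 1 lower, and of the 41 aldo-keto reductases, P450 and conjugating enzymes 16 were higher and 2 lower. In shHES4 against shCtrl the same lists held 2 and 3 higher members, SNHG32 rising by 0.31 ± 0.06 in the former. In the collagen list 18 of 32 members were lower and 1 higher, in the protease list 8 of 27 lower and 3 higher, and in the axon guidance list 10 of 40 lower and 7 higher. NRCAM, a neuronal adhesion gene, stood at 209.8, 210.3 and 218 CPM in shCtrl, 184, 200.1 and 185 in shHES4 and 291, 290.4 and 282 in the libraries labelled shHES1. The shCtrl and shHES4 values were apart but close (-0.17 ± 0.04), and the direct difference was -0.60 ± 0.04 (adjusted p = 2.39e-09).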

How the data were processed

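Total RNA of A549 cells was extracted with TRIzol and sequenced after library preparation with a SMARTer kit, per the labels' protocols. Estimated counts of all 9 libraries come from a single gene table that the authors deposited, in which 35.5% of nonzero values are not whole (tolerance 1e-06). Aligner, counting tool, strand use and annotation were not given in the sources used here. A mouse build stands in the submitters' processing notes and does not match the human gene identifiers, so no build was taken from them. Positions are those of GENCODE 29 on GRCh38, which held 58396 of the 60664 identifiers, and promoters are from RefSeq. A symbol was held by 42028 identifiers with 98.98% of the counts.

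Estimated counts were rounded and fitted in edgeR 4.0.16 (R 4.3.3, limma 3.58.1) with filterByExpr, TMM and the quasi-likelihood F test over all 9 libraries, with 6 residual degrees of freedom and a biological coefficient of variation of 0.0403. The contrasts were shHES4 against shCtrl and shHES4 against the libraries labelled shHES1. Benjamini-Hochberg adjustment ran over all 16903 genes, the threshold was 0.05, and glmTreat tested against 1.2-fold. Tables were assembled with Python 3.11.15 and pandas 2.3.3. The fit of shHES4 against shCtrl was tested on simulated data, with 50 genes changed by each of several factors. Only genes with a mean of at least 1 CPM were changed. Only 26 of the 50 genes given a factor of 1.25 were recovered (52%). Factors of 1.5 and 2 gave shares of 78% and 86%, and every gene given a factor of 4 was found. With 16702 genes run, 16 calls were false. The simulated counts took their means and spread from these libraries, with no library set apart as shCtrl replicate 3 was. The shares recovered and the false calls therefore describe that simulated setting only. Alternatives were other library factors, DESeq2 1.42.0, other filters, 6 libraries alone, a replicate block, a GC and length correction, and leaving out each library. Total counts per library (22.8 to 27.6 M) set the precision, and count intervals cover counting error only.

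Named genes are the HES and HEY genes, the 20 largest rises and falls at a mean of at least 5 CPM, the 6 largest from 1 to 5 CPM and the 10 largest at 200 CPM or more, all without overlap of the groups, the 10 smallest p, up to 5 members of each list by p, and runs of neighbouring called genes. APOBEC3G, B2M, C3, CALR, CANX, IFI44L, JUNB, PDIA3 and PSMB9 were named outside this rule, after their values were seen. The gene lists and members were chosen with earlier results of these data known. Some genes that met the naming rule are not reported here.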

Additional observations from a re-analysis of the deposited data

How the results depend on the processing

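Of 225 named genes that were called, 166 kept their sign and their call under all 17 alternatives, 9 of which leave out 1 library each, and 0 changed sign. The number of genes lower was 788 with no filter on low counts, against 457, and ran from 304 (without shHES4 replicate 3) to 509 (without shCtrl replicate 1) when a library was left out. Past 1.2-fold 121 genes were called, against 69 in the DESeq2 Wald test and 217 with no filter. HES4 ranged from -0.56 to -0.37 on the log2 scale when a library was left out, and its call ended without replicate 2 of shHES4 (-0.42, adjusted p = 0.0549) or its replicate 3 (-0.40, adjusted p = 0.0619). Uncalled genes of its family changed sign: HES2, at 0.24, ran from -0.20 to 0.49 when a library was left out, HES6, at -0.038, from -0.083 to 0.018, with 0.019 under the GC and length correction, and HEY1, at -0.07, from -0.23 to 0.11. The cause was not tested. Total counts alone gave 59.5% of calls higher, no filter 46.5% and the GC and length correction 49.9%, against 54.5%. Same-numbered libraries of shHES4 and shCtrl correlated in their deviations at -0.13, 0.01 and 0.02. The labels tie them by number alone, and whether they shared a batch or culture was not tested. With the replicate block 468 genes were higher and 382 lower, and HES4 was at -0.46 and still called. Genes under 5 CPM had a median SE of at least 0.217, so small changes in them were not detectable at this depth.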
